A study of Mus musculus with 12 samples.

Results

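The cytosolic ribosomal protein genes encode the proteins of the ribosome that makes protein outside the mitochondria. They were taken from the table of transcripts by their symbol, as every gene named Rpl or Rps followed by a number and at most 1 of the letters a, x, y or l, together with Rpsa, Rplp0, Rplp1 and Rplp2. The rule found 81 of 52169 gene symbols, 32 for the small and 49 for the large subunit, with 656 transcripts in all. Each gene was represented by its transcript with the highest mean share of the library totals. Levels are given in CPM, the count scaled to a library total that was itself adjusted by the TMM factor of edgeR. Of the 81 genes, 75 were tested in all 5 comparisons below, and 1 more in 3 of them. The remaining 5 (Rpl10l, Rpl19, Rpl28, Rpl36 and Rpl39l) had too few counts for any test.

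The 12 RNA-seq libraries came from striatal punches of C57BL/6J mice (age not given) in which 6-OHDA, a toxin of catecholamine neurons, had been injected into the right medial forebrain bundle under desipramine (25 mg/kg), with 2 weeks of recovery before L-DOPA was given. The lesion removes most of the dopamine input of the striatum on that side. All mice, and so all 4 groups, received L-DOPA (10 mg/kg) with benserazide (7.5 mg/kg) and were killed 1 hour after the last injection. The groups of 3 libraries each were the unlesioned and the lesioned striatum after a single injection (acute) and the unlesioned and the lesioned striatum after 9 days of daily injections (chronic). The chronic lesions were therefore older than the acute ones, and the age of the lesion cannot be told apart from the treatment. No group without L-DOPA or without surgery was analysed here, so the unlesioned side of treated animals served as the control. Whole tissue was sequenced, in which fewer cells of a type and less RNA per cell cannot be told apart.

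Each ribosome holds a fixed set of these proteins, and cells keep the supply of the different proteins in balance. Most of their mRNAs begin with a C followed by a run of pyrimidines, the terminal oligopyrimidine (TOP) tract, through which the mTORC1 pathway controls their translation and stability. Phosphorylation of Rps6, a protein of the small subunit, is a widely used sign of signalling in striatal neurons given L-DOPA or other dopaminergic drugs, but it is a change of the protein that RNA counts do not show.

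The libraries held 87695043 to 173116525 counts each over all transcripts. Markers of medium spiny neurons, the main cells of the striatum, summed to between 787 and 1361 CPM. Chronic unlesioned library 2 stood apart by its choroid plexus markers, with a sum of 482 CPM against 3.79 to 11.7 CPM in the other 11, and the members' counts of calls and medians by the main test that rest on it are also given without it. The blocked, DESeq2 and unadjusted counts below include it. Markers of cortical glutamatergic neurons ranged from 4.40 to 45.1 CPM and differed between libraries of the same group.

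The tract lies at the transcription start, and for 60 members the RefSeq table of start sites (GRCm38.p6) held an entry. A C followed by at least 7 bases that are each C or T, read on the transcribed strand, lay within 20 bases either side of the start in 29 of these 60 (48.3%), against 14.5% of 27025 genes with an entry. The windows of 30 bases centred on the start, with the tract in capitals, are given for the 5 members that hold a tract in it and had the lowest adjusted p in the acute comparison below, and for 3 of the members that did not pass that test.
Rps18 (chr17:33955651-33955680, minus strand): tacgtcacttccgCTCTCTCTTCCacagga
Rpl13a (chr7:45128731-45128760, minus strand): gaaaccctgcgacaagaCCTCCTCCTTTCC
Rps9 (chr7:3704026-3704055, plus strand): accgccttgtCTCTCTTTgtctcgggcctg
Rpl14 (chr9:120571502-120571531, plus strand): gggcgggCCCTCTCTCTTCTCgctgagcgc
Rpl4 (chr9:64173372-64173401, plus strand): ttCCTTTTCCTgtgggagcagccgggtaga
Rps6 (chr4:86857353-86857382, minus strand): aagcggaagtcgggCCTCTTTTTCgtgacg
Rps24 (chr14:24490663-24490692, plus strand): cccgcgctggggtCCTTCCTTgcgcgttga
Rpl15 (chr14:18270972-18271001, minus strand): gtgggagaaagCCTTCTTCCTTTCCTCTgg
Members with and without a tract at this place were found on both sides of the test after acute L-DOPA. Of the 21 members with an entry that were called higher in the lesioned striatum, 9 had a tract, and of the 35 with an entry that were tested and not called, 18 had one.

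The ribosomal protein genes took a small share of the counts, and their levels differed widely. With counts summed over 1 transcript per gene, the 81 members held between 0.226% and 0.304% of that sum in a library. The highest mean was 73.7 CPM (Rpl4), the median of the members' means was 3.35 CPM, and 23 members had a mean under 1 CPM. Compared per length, on the authors' normalized expression (NE, reads scaled by transcript length and library size), the 4 highest were the P-stalk protein Rplp1 (2.92 NE), Rpl8 (2.31 NE), Rps15 (2.16 NE) and Rpl4 (2.14 NE). The median member stood at 0.139 NE. The 5 lowest were Rpl10l and Rpl28, listed at 0, Rpl39l, Rpl36 and Rpl3l (up to 0.00353 NE).

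Much of the sequence of these genes occurs in more than 1 place in the genome, since mammalian ribosomal protein genes have many processed pseudogenes. For the 80 members with an mRNA in the mm9 annotation (GENCODE M1), the share of 32-base words of the mRNA that also stand at another position in mm9 had a median of 70.7%. It was at least 80% for 30 members and under 20% for 8. Rps27 shared 99.7% of its words and Rps12 98.1%, whereas Rpl8 shared 11.2% and Rps3 12.4%. How reads with several positions were placed is not given in the sources used here, so a low level of a member with many copies need not mean little mRNA. The top transcripts of Rpl10a, Rpl11, Rpl12, Rpl24, Rpl3, Rpl31, Rpl36a, Rpl37a, Rpl38, Rplp2 and Rps13 lay on single-exon copies away from the gene itself. For Rpl28 and Rpl10l all transcripts had 0 counts, so the choice of 1 is arbitrary. The one taken for Rpl28 lay on a single-exon copy on chromosome 1 and not at its gene on chromosome 7, so its 0 is not a reading at the gene. Rplp2, for example, was counted at chr12:76731917-76732365 (mm9), the locus annotated as Rplp2-ps1, and not at its gene on chromosome 7. The Spearman correlation across the 68 members whose top transcript lay at their own gene, Rpl10l included, between this share and the mean NE was -0.26, a weak relation across genes that are not independent replicates. The 2 members with the smallest shares, Rpl3l (1.19%) and Rpl39l (2.71%), were also at the bottom of the levels.

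**Figure D1:**
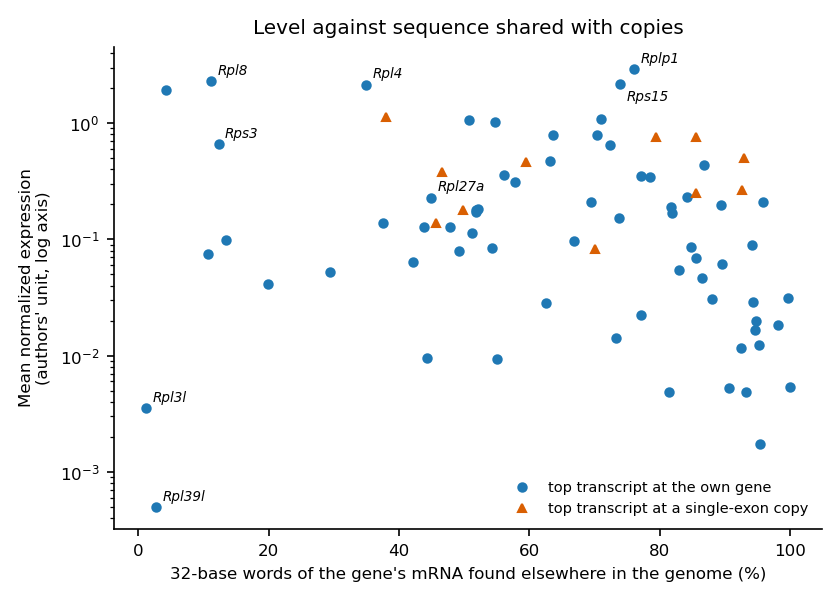
Mean normalized expression over the 12 libraries (authors' unit, log axis) against the percentage of 32-base words of each member's mRNA that also stand elsewhere in mm9, for members counted at their own gene (circles) or on a single-exon copy (triangles), without Rpl10l and Rpl28, listed at 0, and Rpl41, with no mRNA in the annotation used. High levels occur both with few shared words (Rpl8, 11.2%) and with many (Rplp1, 76.1%).

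The first comparison asked how the lesioned striatum differed from the unlesioned one after a single dose of L-DOPA. The ribosomal protein genes that passed the test were all higher in the lesioned striatum. Of 75 members tested, 29 passed the quasi-likelihood test of edgeR, adjusted after Benjamini and Hochberg, at 0.05, and all 29 were higher, 38.7% of those tested, against 8.16% of 20402 genes called higher and 7.16% called lower. The median log2 fold change of the members was 0.23 (a rise of 17.3%), against 0.02 over all genes tested, and 68 of 75 members had a positive value. Both subunits took part, with 13 of 31 tested members called higher for the small subunit and 16 of 44 for the large one, at medians of 0.25 and 0.23. Among the 26 members with a mean of at least 5 CPM, 16 were called and all 26 had a positive log2 fold change, between 0.01 and 0.36, when 9.56% of 7017 genes of that level were called higher and 12.6% lower. In 41 of the 75 members every lesioned library lay above every unlesioned one, against 16.7% of all genes tested, and in 0 members was the order reversed. At an unadjusted p under 0.05, 42 members were higher and 0 lower, against 16.8% and 14.6% of all genes tested. DESeq2 called 27 members higher and 0 lower, against 7.77% and 6.89% of the genes to which it gave an adjusted p.

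The members' share of the counts on 1 transcript per gene also differed between the acute groups. It was 0.254 to 0.268% in the 3 acute unlesioned libraries and 0.30 to 0.304% in the 3 acute lesioned ones, which did not overlap. After chronic L-DOPA it was 0.260 to 0.268% on the unlesioned and 0.226 to 0.252% on the lesioned side, which did not overlap either and lay in the other order (cell type markers are given with that comparison). Their summed levels overlapped after chronic L-DOPA, at 524 to 555 CPM on the unlesioned and 490 to 552 CPM on the lesioned side.

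**Figure D2:**
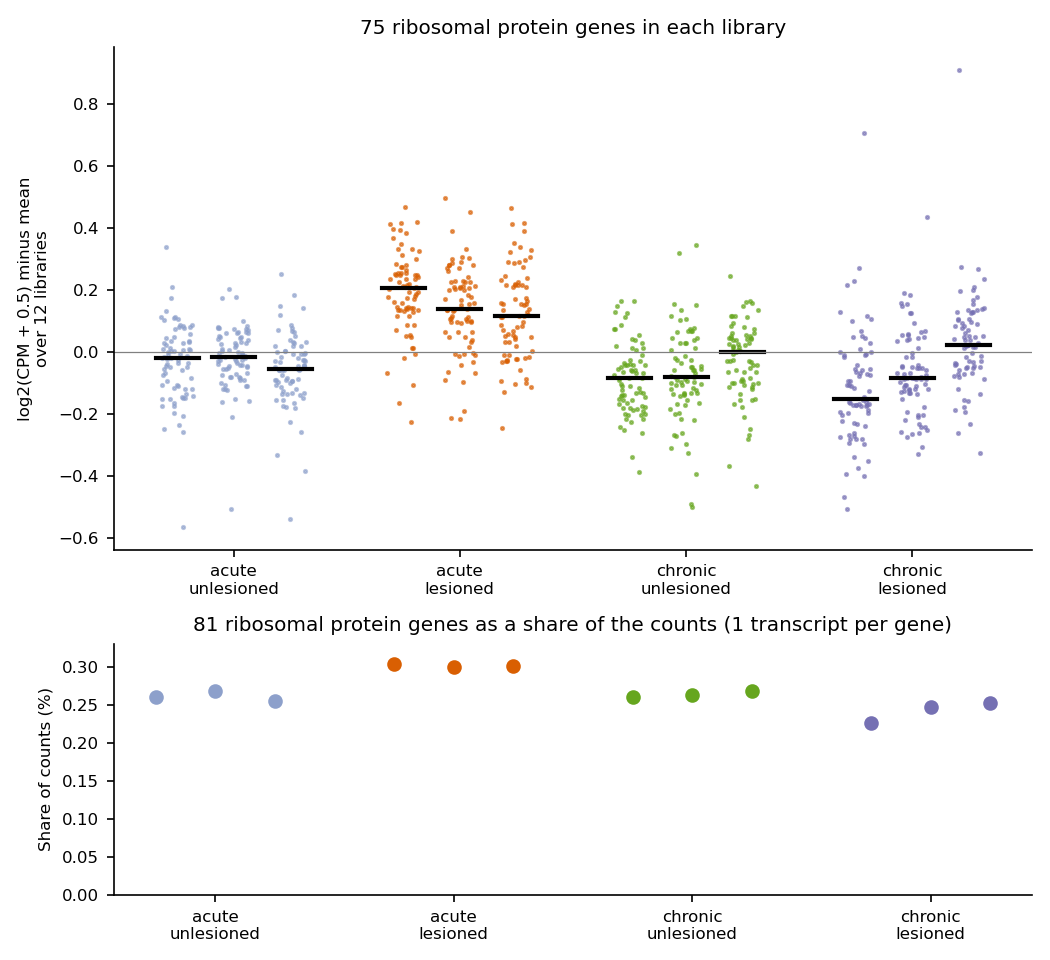
In the upper panel each point is 1 of 75 members in 1 library, as log2(CPM + 0.5) minus the gene's mean over the 12 libraries, and bars are medians over the members; the lower panel gives the counts on the 81 members as a percentage of the counts on 1 transcript per gene. The 3 acute lesioned libraries have the highest medians (0.12 to 0.21) and shares.

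The P-stalk of the large subunit, where elongation factors dock, is formed by Rplp0, Rplp1 and Rplp2. Rplp1 (chr9:61761090-61762317, mm9) stood at 26.7, 26.4 and 26 CPM in the acute unlesioned libraries and at 34.5, 32.4 and 33.8 CPM in the acute lesioned ones. The groups did not overlap, and the difference was 0.36 ± 0.06 on the log2 scale (SE), a rise of 28.2% (adjusted p = 0.00150). Rplp0 rose from 12.4 ± 0.573 to 15.5 ± 0.435 CPM (mean ± SD, n = 3 per group), by 0.33 ± 0.06 (adjusted p = 0.00416 by edgeR). Rplp2, counted on the copy named above, rose from 9.79 ± 0.354 to 11.3 ± 0.151 CPM, by 0.22 ± 0.06 (edgeR, adjusted p = 0.0308).

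Members with high levels in both subunits were among those that rose. Rpl8 (chr15:76734501-76736748), next to the peptidyl transferase centre of the large subunit and with few copies in the genome, stood at 40.6, 43.4 and 43.4 CPM on the unlesioned and at 52.6, 49.7 and 54.4 CPM on the lesioned side and rose by 0.31 ± 0.06 (edgeR, adjusted p = 0.00626). Rpl4 (chr9:64021182-64026473), which lines the exit tunnel, stood at 72.0, 69.2 and 68.2 CPM and at 87.2, 85.0 and 80.6 CPM and rose by 0.28 ± 0.06 (edgeR, adjusted p = 0.00894). Rps15 (chr10:79755390-79756832), a protein of the small subunit head, rose from 25.1 ± 0.442 to 29.7 ± 0.861 CPM, by 0.25 ± 0.06 (edgeR, adjusted p = 0.0121). All lesioned values of Rpl8, Rpl4 and Rps15 lay above all unlesioned ones. Of the other members whose start windows are shown above, Rps9 rose by 0.30 ± 0.06 at a mean of 21.2 CPM, and Rps18 by 0.51 ± 0.09 at a mean of 2.03 CPM (edgeR, adjusted p = 0.00760 and 0.00335).

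The largest folds belonged to members with low counts. Rpl21 (chr5:147644778-147647562), whose introns host the small nucleolar RNAs SNORD102 and SNORA27, stood at 0.565, 0.609 and 0.584 CPM in the unlesioned libraries and at 1.28, 1.41 and 1.60 CPM in the lesioned ones. It rose 2.45-fold (1.29 ± 0.13 on the log2 scale (SE), edgeR adjusted p = 4.56e-05), with no overlap. Rpl10, a late-joining protein of the large subunit, stood at 0.445, 0.486 and 0.314 CPM and at 0.871, 0.902 and 0.864 CPM and rose 2.12-fold (1.08 ± 0.17, edgeR adjusted p = 0.00147). Rpsa, the small subunit protein also known as the laminin receptor, rose from 0.359 ± 0.0744 to 0.649 ± 0.112 CPM, by 0.87 ± 0.20 (edgeR, adjusted p = 0.0150). Rpl41, the shortest ribosomal protein, rose from 2.67 ± 0.0632 to 3.90 ± 0.366 CPM, by 0.56 ± 0.09 (edgeR, adjusted p = 0.00173). Rpl21 and Rpl10 took at most 268 and 115 counts in a library, so their folds rest on few reads. Both were counted on transcripts other than their RefSeq mRNAs, which had means of 0.554 CPM (Rpl21) and 0.00663 CPM (Rpl10). Among 66 members read at RefSeq mRNAs, the highest log2 fold change after acute L-DOPA was 0.87.

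Some members did not pass the test after acute L-DOPA. Rps6 stood at 0.634, 0.515 and 0.681 CPM on the unlesioned and 0.780, 0.751 and 0.697 CPM on the lesioned side, at a log2 fold change of 0.29 ± 0.15 (edgeR, adjusted p = 0.221). Among members of at least 5 CPM the lowest values were those of Rpl15 (0.01 ± 0.08, edgeR adjusted p = 0.944), Rps24 (0.08 ± 0.08, edgeR adjusted p = 0.594) and Rpl22 (0.10 ± 0.07, edgeR adjusted p = 0.329). Rps27 and its near copy Rps27l, which p53 can induce, had values of 0.44 ± 0.22 and -0.08 ± 0.13, neither called (edgeR, adjusted p = 0.216 and 0.711). Rps4x, the X-linked form of Rps4, rose by 0.32 ± 0.08 (edgeR, adjusted p = 0.0251). Related genes known from other tissues (Rpl3l from muscle, Rpl39l from testis) were close to absent, with Rpl3l at 2 to 19 counts and Rpl39l at 0 to 8 counts per library, whereas Rpl3, counted on its copy, rose by 0.23 ± 0.06 (edgeR, adjusted p = 0.0363). Rpl39 had a value of 0.21 ± 0.11 (edgeR, adjusted p = 0.249).

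**Figure D3:**
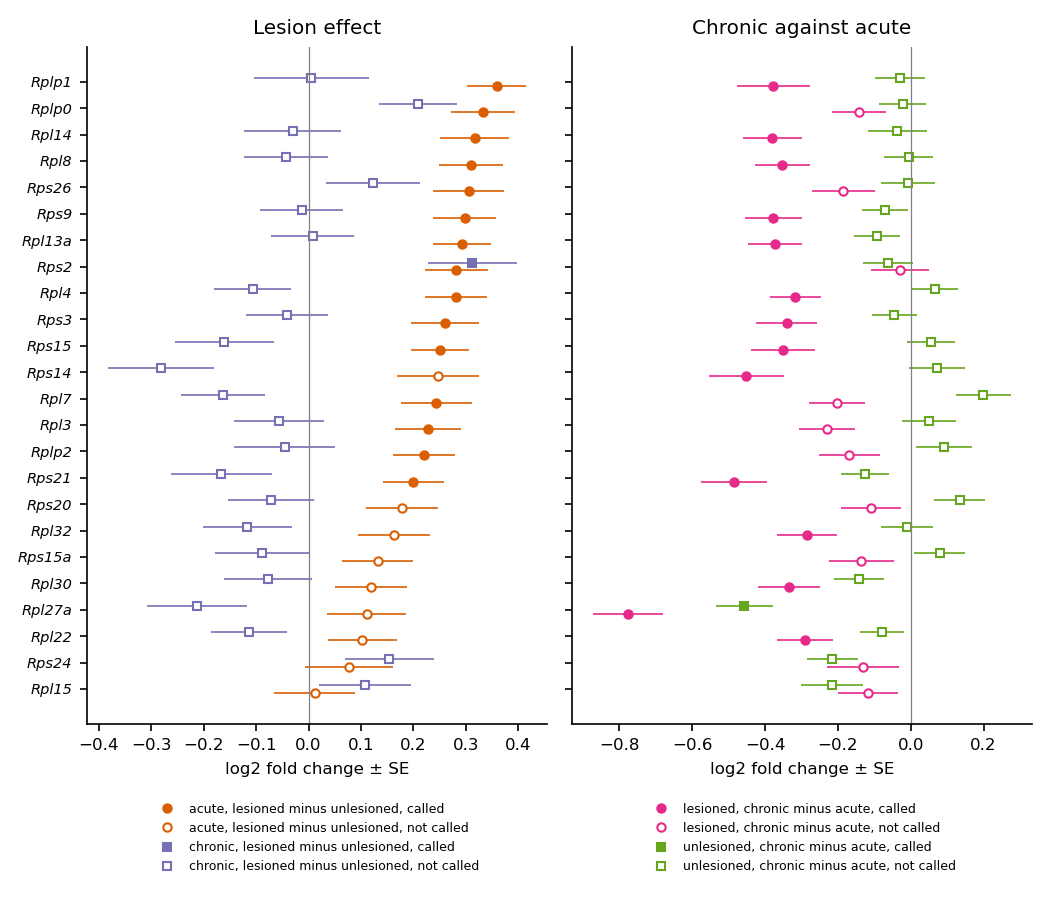
Log2 fold changes ± SE from edgeR of members with a mean of at least 5 CPM, ordered by the acute lesion effect; filled symbols passed an adjusted p of 0.05 over all transcripts. All acute lesion effects drawn are above 0 and all values of chronic minus acute L-DOPA in the lesioned striatum are below 0.

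With the replicate number as a block, 40 members were called higher and 0 lower, when 13.2% of all genes were called higher and 11.8% lower. The adjusted p values here rest on 3 libraries a group, and leaving out 1 library left between 18 and 23 members called, all higher. The lowest of these, 18, came without unlesioned library 2, and 19 were called without unlesioned library 1, unlesioned library 3 or lesioned library 2. Over all transcripts, these fits called between 5490 of 131633 (without unlesioned library 3) and 8653 of 130917 (without lesioned library 3) higher. It was 6423 of 131076 without unlesioned library 2.

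Genes with related tasks were taken from lists of known members, and their counts stand against 8.16% of all genes called higher and 7.16% called lower. The list of other mRNAs with a known TOP tract held 18 genes. The scan of start sites described above found a tract in 3 of the 12 with an entry. Of the 18, 9 were called higher after acute L-DOPA and 0 lower, 50% and 0%, at a median of 0.21. Among them were Eef2, the factor that moves the ribosome along (0.31 ± 0.06, edgeR adjusted p = 0.00580), Eef1a1, which brings in aminoacyl-tRNA (0.21 ± 0.06, edgeR adjusted p = 0.0409), Pabpc1, the poly(A) binding protein (0.64 ± 0.06, edgeR adjusted p = 3.82e-05), and Tpt1 (1.00 ± 0.08, edgeR adjusted p = 5.91e-06). The snoRNA hosts Gas5 and Snhg1, which code for no ribosomal protein, rose by 0.31 ± 0.06 and 0.51 ± 0.10 (edgeR, adjusted p = 0.00772 and 0.00723). Of 8 ribosomal or ribosome-like genes outside the naming rule, 3 were called higher and 2 lower. The 3 were Fau (0.38 ± 0.06), Gnb2l1 (0.19 ± 0.05), the Rack1 protein, and Rpl22l1 (0.73 ± 0.07), and the 2 were Rpl7l1 (-0.25 ± 0.07) and Rsl1d1 (-0.29 ± 0.07). Fau, which encodes a fusion with a protein of the small subunit, was counted at the locus of Gm9843 on chromosome 16.

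Few genes that build ribosomes and none of the mitochondrial ribosome were called higher after acute L-DOPA. Of 32 ribosome biogenesis genes, 9 were called lower and 2 higher, 28.1% and 6.25% of them (median -0.18). The 2 were Nolc1 (1.02 ± 0.06, edgeR adjusted p = 5.34e-07), a nucleolar chaperone, and Nop58 (0.56 ± 0.10, edgeR adjusted p = 0.00270), a core protein of box C/D particles, and among the 9 was Gar1 (-0.45 ± 0.11, edgeR adjusted p = 0.0197). Of 76 mitochondrial ribosomal proteins 8 were called lower and 0 higher, 10.5% and 0% (median -0.06), of which Mrpl44 fell most (-0.57 ± 0.08, edgeR adjusted p = 0.000599). Of 87 tested oxidative phosphorylation subunits 1 was called higher and 3 lower (median 0.02). Of 32 translation factors 6 were called higher and 1 lower (median -0.01), and of 22 genes of the mTORC1 pathway and regulators of TOP mRNAs 2 were called in each direction, 9.09% each (median -0.06). The difference of a list from the members was not tested.

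**Figure D4:**
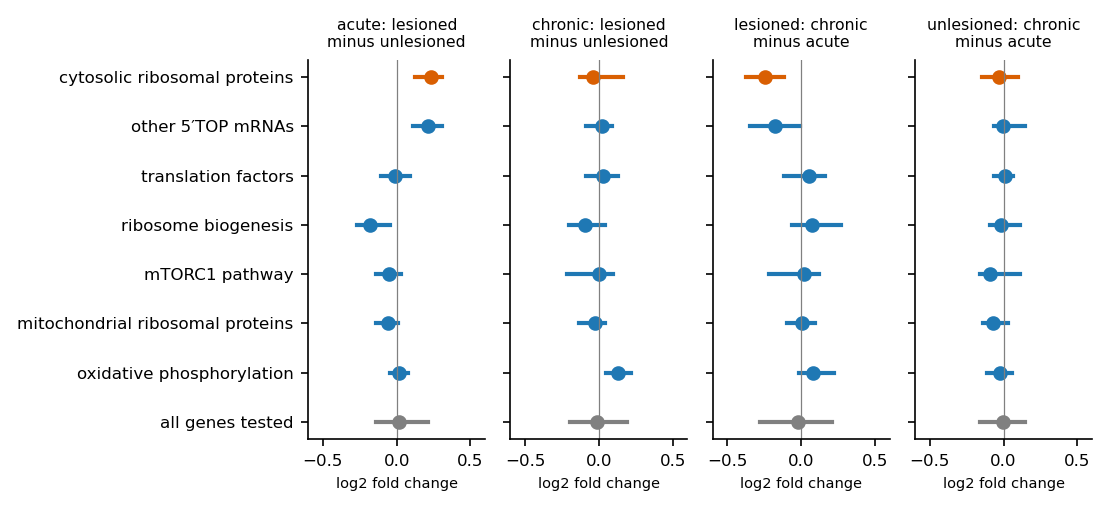
Median (point) and interquartile range (line) of the log2 fold changes of the members (orange), of 6 related lists (blue) and of all genes tested (grey) in the 4 comparisons of 2 groups, from edgeR. The members and the other TOP mRNAs have the highest medians in the acute comparison (0.23 and 0.21) and the lowest in the lesioned striatum from acute to chronic L-DOPA (-0.24 and -0.18).

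Markers of several other cell types moved with the members in this comparison. All 6 oligodendrocyte, all 6 astrocyte and all 6 microglia markers had positive log2 fold changes, of which 1, 2 and 1 were called (medians 0.31, 0.26 and 0.17). Their summed levels were 2086 to 2331 CPM on the unlesioned and 2107 to 3492 CPM on the lesioned side for oligodendrocytes, 180 to 201 and 220 to 276 CPM for astrocytes and 50.8 to 53.4 and 54.0 to 64 CPM for microglia. No marker of these lists was at 0 in any library. All 5 blood and all 6 endothelium markers had positive values as well (medians 0.29 and 0.16), of which 0 were called. Of 6 medium spiny neuron markers 2 were called higher and 3 lower (median -0.26), and their sums of 1128 to 1361 CPM on the unlesioned and 990 to 1090 CPM on the lesioned side did not overlap. Of 6 cortical glutamatergic neuron markers 5 had negative values (median -1.39), with 1 called in each direction and sums of 15.2 to 32.6 CPM on the unlesioned and 4.96 to 18.5 CPM on the lesioned side, and of 5 choroid plexus markers 4 were positive (median 0.43) and 1 was called lower. The part of these cell types in the rise of the members was not tested. Without lesioned library 1, which had the highest sums of all 3 glial lists, 21 members were called higher, when 7957 of 131134 transcripts were.

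The second comparison set the lesioned against the unlesioned striatum after 9 days of L-DOPA. Few ribosomal protein genes differed. Of 76 members tested, 4 were called higher and 0 lower by the quasi-likelihood test of edgeR, adjusted after Benjamini and Hochberg, 5.26% against a background of 8.46% of 19742 genes called higher and 5.2% called lower. The median log2 fold change was -0.04, against -0.01 over all genes, with 33 positive and 43 negative values. At an unadjusted p under 0.05, 8 members were higher and 3 lower, against 14.7% and 13.4% of all genes tested. DESeq2 called 3 members higher and 0 lower, against 9.05% and 5.56% of the genes to which it gave an adjusted p.

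The 4 members that rose were Rpl21, Rpl9, Rps2 and Rpl10. Rpl21 stood at 0.704, 0.620 and 0.668 CPM in the chronic unlesioned and at 2.07, 1.63 and 2.46 CPM in the chronic lesioned libraries, and rose 3.09-fold (1.63 ± 0.16 on the log2 scale (SE), edgeR adjusted p = 0.000111). Rpl9 stood at 0.521, 0.318 and 0.398 CPM and at 0.856, 0.815 and 0.770 CPM and rose by 0.98 ± 0.20 (edgeR, adjusted p = 0.0103). In neither gene did the groups overlap. Rps2, a protein near the mRNA entry site, stood at 6.67, 6.53 and 7.12 CPM and at 7.84, 8.41 and 8.95 CPM and rose by 0.31 ± 0.09 (edgeR, adjusted p = 0.0385). Rpl10 stood at 0.366, 0.327 and 0.344 CPM and at 0.525, 0.522 and 0.568 CPM and rose by 0.64 ± 0.18 (edgeR, adjusted p = 0.0449). All 4 had also been called higher after acute L-DOPA. Like Rpl21 and Rpl10, Rpl9 was counted on a transcript other than its RefSeq mRNA, which had a mean of 0.00600 CPM. Among 65 members read at RefSeq mRNAs, the highest log2 fold change after chronic L-DOPA was 1.04.

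The 4 members with the highest levels per length did not pass the test. Rplp1 stood at 24.6, 24.6 and 28.2 CPM on the unlesioned and 23.0, 24.1 and 30.5 CPM on the lesioned side, at 0.01 ± 0.11 (edgeR, adjusted p = 0.983). Rps15 stood at 25.1, 25.0 and 28.2 CPM and 21.2, 22.5 and 26.2 CPM, at -0.16 ± 0.09 (edgeR, adjusted p = 0.324), and Rpl8 at 39.7, 42.7 and 44.2 CPM and 38.5, 41.6 and 42.7 CPM, at -0.04 ± 0.08 (edgeR, adjusted p = 0.794). In each of these 3 genes the groups overlapped. Rpl4 stood at 75.3, 69.9 and 73.5 CPM on the unlesioned and 68.0, 67.5 and 67.6 CPM on the lesioned side, without overlap, at -0.11 ± 0.07 (edgeR, adjusted p = 0.411).

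With the replicate number as a block, 7 members were called higher, Rpl41, Rplp0 and Rps13 in addition (edgeR, block adjusted p = 0.0253, 0.0448 and 0.0447). Rpl31 and Rps14 were called lower with the block, at -0.33 ± 0.11 and -0.28 ± 0.10 without it (edgeR, block adjusted p = 0.0426 and 0.0131). With the block 12.8% of all genes were called higher and 11.4% lower. Leaving out 1 library left 2 members called higher in each of the 6 fits, with 1 called lower in 2 of them. Without chronic unlesioned library 2, Rpl21 (1.58) and Rpl9 (0.83) were called higher and Rpl31 lower (-0.41), by edgeR at adjusted p = 0.000284, 0.0232 and 0.0443. Rps2 (0.28) and Rpl10 (0.60) lost their calls there (edgeR, adjusted p = 0.0992 and 0.103), and the median over the members was -0.03, when 7.32% of all genes were called higher and 5.05% lower. Without chronic lesioned library 3 the member called lower was Rps14.

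Of the markers of other cell types, all 6 oligodendrocyte markers (median -0.22), 4 of 5 blood markers (-0.08) and all 6 cortical glutamatergic neuron markers (-1.58) had negative values and all 6 endothelium markers positive ones (0.13), of which 0 were called. Of the astrocyte markers 1 was called higher and of the medium spiny neuron markers 1 lower (medians 0.12 and -0.08). Of the microglia markers 4 were positive and 2 negative (median 0.02), with 0 called. The 3 choroid plexus markers tested were negative (median -1.24), 1 of them called, with the high sum in chronic unlesioned library 2 given above. The sums were 1551 to 2241 CPM on the unlesioned and 1164 to 2077 CPM on the lesioned side for oligodendrocytes and 146 to 172 and 181 to 238 CPM for astrocytes. Their part in the values and in the share of the members was not tested.

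The third comparison followed the lesioned striatum from acute to chronic L-DOPA. Most ribosomal protein mRNAs that passed the test were lower after 9 days. Of 75 members tested, 28 were called lower and 2 higher by the quasi-likelihood test of edgeR, adjusted after Benjamini and Hochberg, 37.3% and 2.67% of them, against 13.1% of 19790 genes called lower and 12.5% called higher. The median log2 fold change was -0.24 (the median fell by 15.6%), against -0.02 over all genes, and 63 of 75 values were negative. In 40 of the 75 members every chronic library lay below every acute one, against 21.7% of all genes tested. This comparison uses the same 3 acute lesioned libraries as the first, so the values of both are given side by side and are not independent of each other.

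Of the small subunit 13 of 31 tested members were lower and 0 higher (median -0.32), and of the large subunit 15 of 44 were lower and 2 higher (median -0.24). Among the 26 members of at least 5 CPM, 16 were called lower, and all 26 had negative values with a median of -0.32, when 15.3% of the 7017 genes of that level were called lower and 20% higher (median 0.03). The plot of log2 fold changes by gene shows both comparisons for the named ones.

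Rpl27a, a large subunit protein whose gene (chr7:116662709-116665883) holds a snoRNA, had the lowest value of these 26. It stood at 6.64, 6.76 and 6.01 CPM in the acute lesioned and at 3.4, 3.98 and 3.92 CPM in the chronic lesioned libraries. The groups did not overlap, and it fell by 0.78 ± 0.10 on the log2 scale (SE, edgeR adjusted p = 0.000330). It had not passed the acute lesion test (0.11 ± 0.08, edgeR adjusted p = 0.366).

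Rps15 stood at 30.7, 29.2 and 29.2 CPM after acute and at 21.2, 22.5 and 26.2 CPM after chronic L-DOPA, at -0.35 ± 0.09 (edgeR, adjusted p = 0.0150). Rps3a stood at 6.25, 5.47 and 5.21 CPM and 3.86, 3.59 and 3.78 CPM, at -0.60 ± 0.10 (edgeR, adjusted p = 0.00171). The groups of neither gene overlapped.

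Rpl31, counted on a single-exon copy on chromosome 15, stood at 4.38, 3.98 and 3.75 CPM and 2.50, 2.74 and 2.69 CPM, at -0.61 ± 0.10 (edgeR, adjusted p = 0.00187). Rps21 fell from 13.6 ± 0.499 to 9.67 ± 1.10 CPM (mean ± SD, n = 3 per group), at -0.49 ± 0.09 (edgeR, adjusted p = 0.00396). Both had lower values in every chronic library. Rplp1 was the one stalk protein called, at -0.38 ± 0.10 (edgeR, adjusted p = 0.0215), while Rplp0 was at -0.14 ± 0.07 and Rplp2 at -0.17 ± 0.08 (edgeR, adjusted p = 0.186 and 0.168). Rpsa, at -0.93 ± 0.25, had the lowest log2 fold change of the named members (edgeR, adjusted p = 0.0216), on at most 88 counts in a library.

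Rps6 fell in the lesioned striatum between the acute and the chronic dose. It stood at 0.780, 0.751 and 0.697 CPM after acute and at 0.582, 0.366 and 0.477 CPM after chronic L-DOPA, at -0.66 ± 0.19 (edgeR, adjusted p = 0.0302). Its top transcript took 40 to 111 counts per library, and 94.8% of its mRNA words stand elsewhere in the genome.

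The 2 members called higher were Rpl21 and Rpl5. With a library left out, 0 members were called higher without acute lesioned library 1 or 2 or chronic lesioned library 1 or 3, and 1 without acute lesioned library 3. Rpl21 went from 1.28, 1.41 and 1.60 CPM after acute to 2.07, 1.63 and 2.46 CPM after chronic L-DOPA, at 0.52 ± 0.16 (edgeR, adjusted p = 0.0342). Rpl5, which with Rpl11 carries the 5S RNA into the ribosome, went from 2.78, 3.10 and 3.00 to 3.95, 3.48 and 3.59 CPM, at 0.31 ± 0.10 (edgeR, adjusted p = 0.0388). In both genes the chronic libraries lay above the acute ones without overlap.

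**Figure D5:**
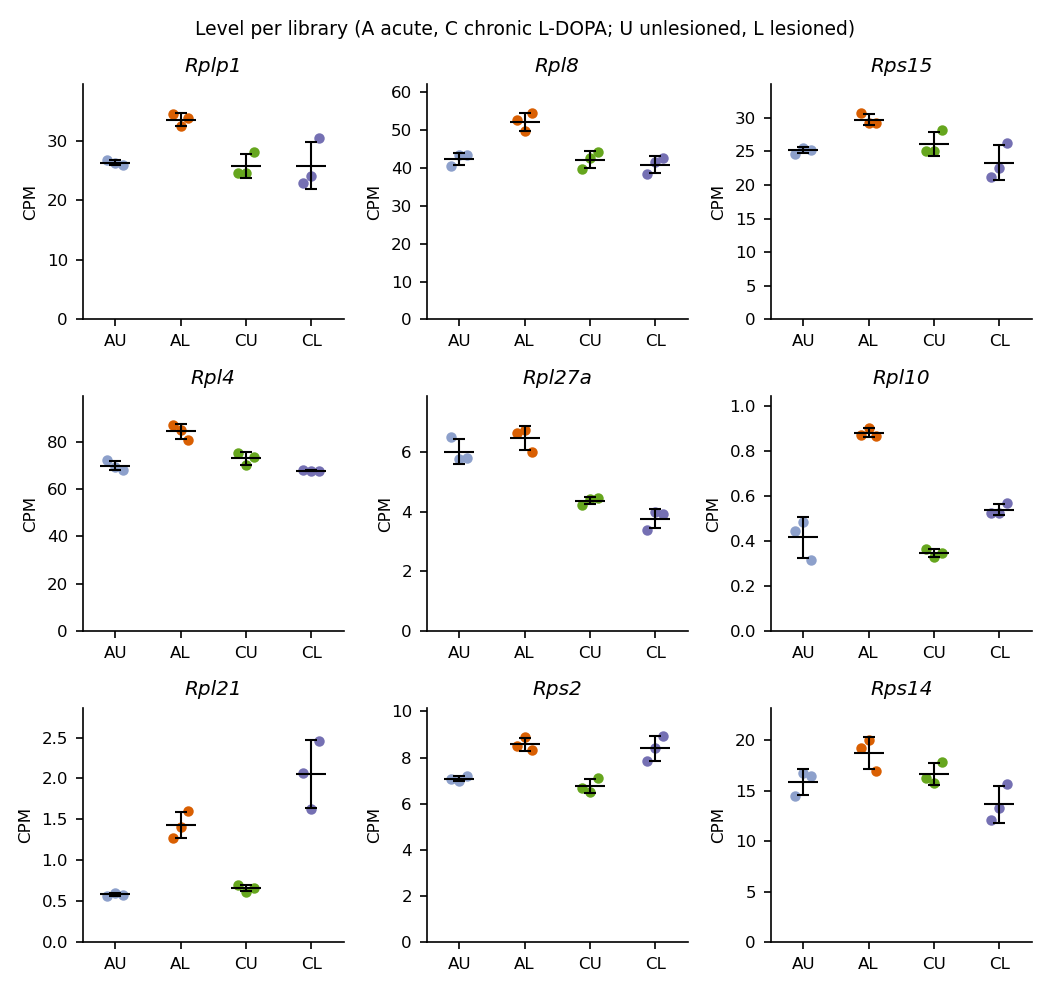
CPM of 9 named members in each of the 12 libraries (points), with the mean and SD of each group (bars, n = 3), for AU acute unlesioned, AL acute lesioned, CU chronic unlesioned and CL chronic lesioned striatum. Rplp1, Rpl8, Rps15 and Rpl4 are highest in the 3 acute lesioned libraries, Rpl21 and Rps2 are higher on the lesioned side after both treatments, and Rpl27a is lower in all 6 chronic libraries than in the 6 acute ones.

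Leaving out 1 library left between 15 and 29 members called, with 15 called without acute lesioned library 1 and 16 without acute lesioned library 2 or chronic lesioned library 1, all lower. The 29, of which 27 were lower and 2 higher, were called without chronic lesioned library 2. Over all transcripts, 36534 of 129068 were called in that fit. It was 18047 of 129045 without acute lesioned library 1 and 16025 of 129416 without chronic lesioned library 1. Glial and blood markers were lower in the same direction. All 6 oligodendrocyte markers (median -0.84), 4 of 6 astrocyte markers (-0.39), 4 of 6 microglia markers (-0.47) and 4 of 5 blood markers (-1.23) were called lower and none of them higher, when 13.1% of all genes were called lower. The endothelium markers had 0 calls, the medium spiny neuron markers 1 higher and 2 lower, the cortical ones 0 and the choroid plexus ones 2 higher and 1 lower. The summed levels in the chronic lesioned libraries were 1164 to 2077 CPM for oligodendrocytes, 181 to 238 CPM for astrocytes, 36.1 to 47.0 CPM for microglia and 1.87 to 3.62 CPM for blood, the last against 5.30 to 10.5 CPM in the acute lesioned libraries. Their part in the fall of the members was not tested.

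Other TOP mRNAs were lower where they passed the test, 7 of 18 (38.9%) with 0 higher (median -0.18), when 13.1% of all genes were called lower and 12.5% higher. Among the 7 were Eef1b2 (-0.36 ± 0.07, edgeR adjusted p = 0.00548), Snhg1 (-0.58 ± 0.11, edgeR adjusted p = 0.00353) and Gas5 (-0.37 ± 0.09, edgeR adjusted p = 0.0171). Tpt1 and Pabpc1 were not among them, at 0.27 ± 0.10 and 0.13 ± 0.08 (edgeR, adjusted p = 0.0662 and 0.259), and were the 2 of the list called higher on the lesioned side after chronic L-DOPA (1.10 ± 0.11 and 0.82 ± 0.08, edgeR adjusted p = 0.000143 and 8.09e-05). Of the ribosome biogenesis genes 7 were called higher and 2 lower, and of 85 tested oxidative phosphorylation subunits 18 were called higher and 4 lower. The plot of list medians places these lists beside the members.

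The fourth comparison followed the unlesioned striatum from acute to chronic L-DOPA, and only Rpl27a changed by the test. Of 76 members tested, 1 was called lower and 0 higher, against 1.99% of 20290 genes called lower and 1.07% called higher, and the median was -0.03. Rpl27a stood at 6.51, 5.76 and 5.79 CPM after acute and at 4.24, 4.42 and 4.47 CPM after chronic L-DOPA, at -0.46 ± 0.08 (edgeR, adjusted p = 0.0199). The groups did not overlap, but the call was lost in 5 of the 6 fits that left out a library and held without chronic unlesioned library 2 (-0.47, edgeR adjusted p = 0.00587), where the median over the members was -0.0025. Without that library 6.63% of 20718 genes were called lower and 5.44% higher. Of the cell type markers, all 6 astrocyte, all 6 microglia, all 6 oligodendrocyte and all 5 blood markers had negative values in this comparison (medians -0.31, -0.31, -0.20 and -0.76), of which 2, 1, 0 and 0 were called lower, and their part in the value of Rpl27a was not tested. Rpl7 and Rps20 had the highest values among members of at least 5 CPM, 0.20 ± 0.08 and 0.13 ± 0.07, neither called (edgeR, adjusted p = 0.162 and 0.296). At an unadjusted p under 0.05, 4 members were higher and 6 lower, against 10.6% and 12.2% of all genes tested. DESeq2 called 0 members higher and 1 lower, against 2.7% and 4.3% of the genes to which it gave an adjusted p.

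The last comparison tested whether the lesion effect itself differed between acute and chronic L-DOPA, as an interaction over all 12 libraries. For 7 members the effect was lower after chronic L-DOPA and for 0 higher by the quasi-likelihood test of edgeR, adjusted after Benjamini and Hochberg, 9.21% of 76 tested, against 1.56% of 20682 genes with a lower and 3.53% with a higher lesion effect. The median change of the members was -0.24 on the log2 scale, against -0.03 over all genes, and 59 of 76 values were negative. At an unadjusted p under 0.05, 32 members were lower and 1 higher, against 9.43% and 11.0% of all genes tested. DESeq2 called 12 members lower and 0 higher, against 2.78% and 6.05% of the genes to which it gave an adjusted p. With the replicate number as a block 22 members were called lower and 0 higher, when 6.13% of all genes were called lower and 7.3% higher. The values of all 6 oligodendrocyte, all 5 blood, all 6 microglia and all 5 choroid plexus markers were negative too (medians -0.52, -0.48, -0.12 and -4.80), of which 0 were called, and their part in the change of the members was not tested. The choroid plexus values rest on chronic unlesioned library 2, without which their median was 0.30 and 2 of 5 were negative.

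Among the 7 were Rps14 and Rps15 of the small and Rpl4, Rpl7 and Rpl31 of the large subunit. The lesion effect of Rps15 went from 0.25 after acute to -0.16 after chronic L-DOPA, a change of -0.41 ± 0.11 (edgeR, adjusted p = 0.0449). That of Rpl4 went from 0.28 to -0.11, a change of -0.38 ± 0.08 (edgeR, adjusted p = 0.0157). Rpl7, a large subunit protein, stood at 7.74, 7.33 and 6.95 CPM on the acute unlesioned, 8.82, 8.17 and 8.89 CPM on the acute lesioned, 8.40, 8.88 and 7.97 CPM on the chronic unlesioned and 7.41, 7.45 and 7.65 CPM on the chronic lesioned side, so that its order between the sides was reversed (change -0.40 ± 0.10, edgeR adjusted p = 0.0291). Rps14, counted on a single-exon row that covers most of the gene, introns included, changed by -0.52 ± 0.14 (edgeR, adjusted p = 0.0403).

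The lesion effects of Rps2, Rpl21, Rpl10 and Rpl9, the 4 members called higher on the lesioned side after both treatments, changed by 0.03 ± 0.10, 0.34 ± 0.21, -0.44 ± 0.24 and 0.37 ± 0.26, none called (edgeR, adjusted p = 0.893, 0.420, 0.339 and 0.475). The value of Rpl10 was as low as those of some called members, with a larger SE. In the lesioned striatum Rpl10 was called lower from acute to chronic L-DOPA (-0.70 ± 0.15, edgeR adjusted p = 0.00748). Rplp1, at -0.35 ± 0.13, was not called without the block and was called with it (edgeR, adjusted p = 0.145 and block adjusted p = 0.0115). Without chronic unlesioned library 2, 6 members were called at a median over the members of -0.24, and Rpl7 (-0.36) lost its call (edgeR, adjusted p = 0.0700), when 1.44% of all genes were called lower and 3.14% higher. Leaving out 1 library left between 1 and 7 members called, 1 without acute unlesioned library 2, 2 without acute unlesioned library 3 or acute lesioned library 1, 3 without acute lesioned library 2, chronic unlesioned library 1 or 3 or chronic lesioned library 1, and 4 without acute unlesioned library 1 or acute lesioned library 3. Over all transcripts, these fits called between 3794 of 132375 (without acute unlesioned library 3) and 9536 of 132345 (without chronic lesioned library 2). It was 4024 of 132149 without acute unlesioned library 2.

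The members were also read at other transcripts, against shares of all genes, each at its top transcript, of 8.16% higher and 7.16% lower after acute L-DOPA and 13.1% lower and 12.5% higher in the lesioned striatum from acute to chronic L-DOPA. Where each member was instead represented by its highest transcript at its own gene, 29 of 74 were called higher and 0 lower after acute L-DOPA, and 30 were called lower and 2 higher in the lesioned striatum from acute to chronic L-DOPA. Of the 11 tested members whose top transcript lay on a copy, 2 (18.2%) were called higher after acute L-DOPA and all 11 values were positive. Of the 20 tested members with under 50% of their words elsewhere, 6 (30%) were called higher (median 0.23), and of the 54 with at least 50%, 22 (40.7%) were (median 0.23).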

How the data were processed

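Gene expression was measured by RNA-seq (Genome Analyzer II) in 12 striatal libraries. Per the labels and the methods of the study, reads were aligned to mm9 and counted per transcript by the authors. How a read on overlapping transcripts was counted is not given in the sources used here. The deposited counts (unnormalized, 189660 transcripts, 87695043 to 173116525 per library) were tested, and the deposited normalized expression signal (NE, scaled by length and library size by the authors) was used only for levels. Transcripts that name no gene held 0.0485% of counts. Another 36 per-sample columns of comparison tables, whose fold changes and p-values are the authors' DESeq results, were not used.

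All transcripts passing filterByExpr were fitted with edgeR 4.0.16 (TMM, quasi-likelihood test, R 4.3.3), pairwise on 6 libraries and for the interaction on 12, with Benjamini-Hochberg adjustment over all of them at 0.05. Each gene was read at its transcript of highest mean CPM. DESeq2 1.42.0, other filters, a replicate block, trends with length and GC content and leaving out libraries were alternatives. The code was tested on simulated data. The members and gene lists were chosen with earlier results of these data known. Groups came from the labels. No label says which libraries share a mouse, and the design text counts 12 mice with 3 per condition, under which each library would come from a separate mouse, so p-values measure the spread between these libraries. Same-numbered libraries of the 2 sides deviated together (correlations 0.164 to 0.375 after acute and 0.150 to 0.472 after chronic L-DOPA over 17329 genes), and the study describes the unlesioned side of a mouse as its own control, so blocked values are given beside the unblocked ones of the main test. The sources thus differ on the pairing.

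Named members were the stalk proteins, Rpsa, Rps6, members ending in l with their namesakes, Rps4x, in each comparison the 3 highest and 3 lowest fold changes at a mean of at least 5 CPM and up to 5 smallest adjusted p per direction, and the 5 highest and 5 lowest levels per length. Rps18, Rpl13a, Rps9, Rpl14, Rps13, Rps12, Rps3, Rpl19 and those listed as counted at copies were named besides, after their values were seen. Some members are not reported here by name, but counts, medians and shares include them. Words of 32 bases were counted in mm9 with Python 3.11.15.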

Additional observations from a re-analysis of the deposited data

Results flagged for a closer look

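The change of the lesion effect from acute to chronic L-DOPA, tested as an interaction, passed an adjusted p of 0.05 in edgeR's quasi-likelihood test for 7 ribosomal protein genes, all of them toward a lower effect after chronic L-DOPA. On the log2 scale the changes reported here were Rpl31 (-0.56), Rps14 (-0.52), Rps15 (-0.41), Rpl7 (-0.40) and Rpl4 (-0.38).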

How the results depend on the processing

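No called value of a named member reversed its direction in the 3330 alternatives run, of which 3030 gave the same verdict, 220 lost a call and 80 gained one. After acute L-DOPA the count of members called (29) lay between 23 and 40 in the other settings, never with a member lower, but was 15 at an adjusted p under 0.01 and 18 to 23 with a library left out. Its median of 0.23 was 0.16 with trends in GC content and length removed, both without and with the replicate block (known GC for 80 of 81 members, chosen after the data were seen), and 0.20 to 0.25 with a library left out. For chronic L-DOPA the count of 4 was 2 with no filter, 2 for sums over transcripts, 2 for RefSeq mRNAs, 1 at an adjusted p under 0.01, 8 with all 12 libraries in the fit (7 higher, 1 lower), 9 with the replicate block (7 and 2), 14 with the block and the length trend removed (6 and 8), 15 with the GC trend removed too (5 and 10), 4 with the length trend (3 and 1) and 6 with both trends removed without the block (3 and 3), and 2 to 3 with a library left out (2 higher in each, median -0.07 to 0.01). In the fits with 14 and 15 members called, 5266 of 19742 and 4382 of 14237 genes were called in all, 2900 and 2358 of them higher. For the lesioned striatum from acute to chronic L-DOPA the count of 30 was 14 at an adjusted p under 0.01 and 15 to 29 with a library left out (median -0.30 to -0.19). With the replicate block it was 27, where same-numbered libraries did not deviate together (correlations -0.122 to 0.116 over both sides), and Rpl5 lost its call (adjusted p = 0.0617). For the unlesioned striatum the count of 1 was 2 with no filter, with all 12 libraries or at the own gene, 4 for RefSeq mRNAs, 0 for sums over transcripts, at an adjusted p under 0.01 or with the block and GC and length trends removed, and 0 to 1 with a library left out (median -0.06 to -0.0025). For the change of the lesion effect the count of 7 was 12 by DESeq2, 4 for sums over transcripts, 1 at an adjusted p under 0.01, 22 with the replicate block, 26 with the block and the length trend removed, 26 with the GC trend removed too, and 1 to 7 with a library left out (median -0.33 to -0.20). In the fits with 26 members called, 3299 of 20664 and 3012 of 14596 genes were called in all, 1851 and 1679 of them higher. The causes of these differences were not tested. Of the 81 members 5 could not be tested and 23 had a mean under 1 CPM, so that the values of these rest on few counts.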

Other observations

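The 26 members with a mean of at least 5 CPM followed each other across the 12 libraries. The Pearson correlation of a member's log2 level with the mean of the other members had a median of 0.84 and ranged from 0.45 (Rps2) to 0.98 (Rps9), with 24 above 0.5. For 6991 other genes of that level the median correlation with the member mean was -0.11. The libraries differ by group, so these values hold the group differences too and are given as a description.

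Of the 10 other genes with the highest correlation (0.93 to 0.96), 6 overlap a member's top transcript. Among them were AK044500 (at the copy counted for Rplp2), Cables2 (Rps21), and Flt3l and LOC638236 (both Rpl13a). Reads in such an overlap may have been counted in both values, which was not tested. Fau and Gm9843 were counted at the same single-exon locus on chromosome 16, so they are not separate measurements, and the other genes that overlap no member were Cox7a2l and Pramef8.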
